A study of Mus musculus with 55 samples.

Results

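A set of 9 genes that encode regulators of mRNA translation and stability in germ cells were followed through every RNA sequencing group of a mouse oocyte series. They are Dazl, Cpeb2, Cpeb3, Cpeb4, Pum2, Igf2bp2, Igf2bp3, Celf1 and Elavl1, chosen by name, 9 of 33924 genes in a first table of read counts. In a second table of 37310 features they were taken as the features with identical exons, and all 9 were found there. Members of this kind decide when a stored mRNA is used. A growing oocyte accumulates mRNA and then falls silent, so that meiotic maturation runs on regulated translation, poly(A) tail length and decay of stored messages. DAZL, a germ cell protein, promotes translation of bound mRNAs, the CPEB proteins recognise an element near the tail and control its length, and PUM2 binds another short element and mostly represses. IGF2BP2 and IGF2BP3 stabilise bound mRNAs, CELF1 binds GU-rich elements and promotes decay or alternative splicing, and ELAVL1, also called HuR, binds AU-rich elements and mostly protects from decay.

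The series is about RNA G-quadruplexes, folded structures of guanine-rich RNA, and about DHX36 (RHAU), a helicase that unwinds them. Of its 55 samples, 26 were RNA libraries with gene counts, labelled as oocytes from ovary, and 24 of these were used. Growing oocytes gave 3 growing_control and 3 growing_sko libraries, where the protocol names Dhx36fl/fl;SKO mice and does not expand SKO. A second experiment had both genotypes (c and rhau_sko) without and with DRB, which blocks transcription elongation through the kinase CDK9, and kept 2 c, 1 c_DRB, 1 rhau_sko and 2 rhau_sko_DRB libraries. The other 2 of that experiment (c_DRB replicate 4 and rhau_sko replicate 6) held fewer than 200000 counts and were left out. Oocytes titled GV (germinal vesicle stage) gave 3 GV_C libraries and 3 GV_cPDS_12h libraries, of which the latter had 12 h of cPDS (carboxypyridostatin), a small molecule that binds and holds RNA G-quadruplexes folded. The labels give GV_C no time, so cPDS and time in culture cannot be told apart. In the last experiment 3 Trim21_3h libraries stood against 3 Trim_control_3h libraries, both at 3 h. TRIM21 is a ubiquitin ligase used to degrade the protein bound by a delivered antibody, and the column titles there name Dhx36. One collection protocol, which speaks of growing oocytes, is attached to all of these libraries, so the GV stage rests on titles alone. Titles in the growing and second experiments name no stage. The protocol covers both, so a difference of stage between these experiments is not labelled. Strain, age, the driver of the deletion, doses and the number of animals behind a library are given in none of the labels.

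Depth was 31930695 to 41075545 counts per growing library, 23010562 to 40968105 in the second experiment, 26509060 to 65444652 in the GV libraries and 7452742 to 32704737 in the Trim libraries. Dhx36 was lower in all 6 used sko libraries and in all 3 Trim21 libraries than in any of their controls, and higher with cPDS (35.5 ± 3.72 against 21.5 ± 1.30 CPM, SD, n = 3 each). CPM here are counts per 1000000 on library sizes scaled by TMM within an experiment. Dhx36 mRNA read 7.72 ± 1.32 CPM in Trim21_3h against 30.5 ± 1.33 in Trim control (SD, n = 3 each). Trim21 mRNA read 8459 ± 844 against 14.7 ± 0.0959 CPM in the same groups. Effects of that Trim21 mRNA and of a change in DHX36 therefore cannot be told apart. Oocyte marker mRNAs (zona pellucida, Gdf9, Bmp15 and others, 10 genes) took 0.729% to 3.41% of counts in the 24 libraries, and granulosa and cumulus markers (15 genes) 0.00233% to 0.0154%. Levels are relative to the other transcripts of a library, so fewer cells of a type and less RNA per cell cannot be told apart. With no statement that replicates are separate animals or cultures, p-values measure only the spread between these libraries, which may be technical.

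Promoter sequence of the members was searched for guanine-rich motifs. RefSeq (GRCm38.p6) gave 12 windows of 250 bases before a transcription start for 8 of the 9 genes. A G-quadruplex motif was defined as 4 runs of at least 3 G with loops of 1 to 7 bases, searched on both strands. Of 32851 windows of all genes 16.7% held it. Among the members 2 of the 12 windows held it, a share near that of all windows. Both were among the 3 windows of Pum2, on the strand of the gene. The hexamer CANNTG, which reads the same on both strands and is searched by basic helix-loop-helix factors, was in 66.2% of all windows and in 5 of the 12 member windows, belonging to Dazl, Cpeb3, Cpeb4 and Igf2bp3. Shown are both Pum2 windows with the motif and those of Dazl and Igf2bp3, the pair that moved in opposite directions in 3 experiments. Capitals mark the G-quadruplex motif in Pum2 and CANNTG in the others, and each runs 5′ to 3′ on the strand of its gene. A match is a description of letters and not a site shown to act. Each window is DNA before a start, and G-quadruplexes in the RNA of the members were not searched.
Dazl, chr17:50293621-50293870, minus strand: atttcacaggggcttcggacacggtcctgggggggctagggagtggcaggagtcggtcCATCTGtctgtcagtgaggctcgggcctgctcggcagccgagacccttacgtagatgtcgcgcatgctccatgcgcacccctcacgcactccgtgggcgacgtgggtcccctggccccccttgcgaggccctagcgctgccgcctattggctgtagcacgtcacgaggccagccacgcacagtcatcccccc
Igf2bp3, chr6:49214955-49215204, minus strand: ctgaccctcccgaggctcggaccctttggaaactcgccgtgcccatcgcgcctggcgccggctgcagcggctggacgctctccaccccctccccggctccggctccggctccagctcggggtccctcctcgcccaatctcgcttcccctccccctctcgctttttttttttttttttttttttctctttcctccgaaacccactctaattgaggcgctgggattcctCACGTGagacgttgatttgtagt
Pum2, chr12:8674009-8674258, plus strand: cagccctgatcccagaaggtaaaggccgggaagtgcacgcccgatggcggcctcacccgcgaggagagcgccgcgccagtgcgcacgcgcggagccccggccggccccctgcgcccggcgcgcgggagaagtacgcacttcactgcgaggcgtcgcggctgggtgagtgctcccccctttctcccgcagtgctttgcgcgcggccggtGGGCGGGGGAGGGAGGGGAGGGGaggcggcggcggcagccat
Pum2, chr12:8674431-8674680, plus strand: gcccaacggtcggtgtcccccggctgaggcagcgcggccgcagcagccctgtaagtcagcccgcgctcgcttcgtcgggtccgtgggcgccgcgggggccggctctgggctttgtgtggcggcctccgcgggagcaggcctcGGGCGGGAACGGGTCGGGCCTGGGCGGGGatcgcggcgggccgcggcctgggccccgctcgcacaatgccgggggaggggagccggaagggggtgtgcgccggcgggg
The GC content of the 12 windows ran from 46.0% to 79.6%, against a median of 52.4% over all windows.

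The number of members called differed between the perturbations, and so did the share of all genes called. In growing oocytes edgeR's quasi-likelihood test, adjusted over every gene tested, called 4 of 9 (Dazl and Elavl1 higher, Igf2bp3 and Pum2 lower in growing_sko), where 53.7% of 14081 genes were called (28.5% higher, 25.2% lower). Higher calls were 53.1% of all calls there and 66.9% with library size alone, which moved the median of all genes by 0.19 on the log2 scale. In the second experiment 4 of 9 passed, with Dazl, Cpeb4 and Celf1 higher and Igf2bp3 lower in rhau_sko, against 36.0% of 16784 genes (19.2% higher, 16.8% lower). With cPDS 7 of 9 passed, Dazl, Cpeb2, Cpeb3 and Cpeb4 higher and Pum2, Igf2bp2 and Igf2bp3 lower, against 50.8% of 16115 (23.4% higher, 27.4% lower). In the Trim21 libraries 0 of 9 passed, against 11.5% of 14191 genes, 6.26% higher and 5.23% lower (1 member had an unadjusted p under 0.05, and DESeq2 called 1). With so large a share of all genes called in the first 3 comparisons, a count of members says little, and the genes are described one by one. The median log2 fold change of the 9 was -0.30 in growing oocytes, 0.18 in the second experiment, 0.13 with cPDS and 0.13 with Trim21, against 0.02, 0.01, 0.01 and -0.01 over all genes tested. All 9 passed the filter on low counts in each comparison.

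**Figure D1:**
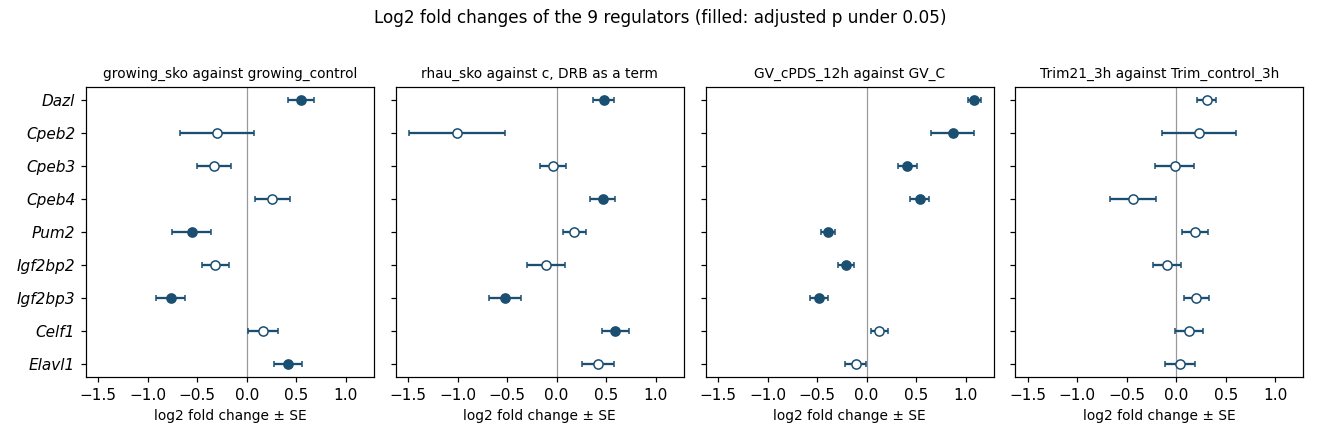
Log2 fold changes with standard errors of the 9 genes (rows) in 4 comparisons (panels), filled where the edgeR adjusted p was under 0.05. Dazl lies to the right of 0 in all 4 panels (0.55, 0.48, 1.09 and 0.31, the last not called), and Igf2bp3 lies to the left in the first 3 (-0.77, -0.52 and -0.48) and at 0.20, not called, in the Trim21 panel.

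Dazl was the most abundant of the 9 and was called higher in 3 comparisons. Its gene lies on the minus strand of chromosome 17 (50418719 to 50432924, mm9). The growing_control libraries held 965, 1017 and 821 CPM and the growing_sko libraries 1197, 1383 and 1511 CPM. Each sko library was above each control, as in 32.2% of genes tested, a log2 fold change of 0.55 (SE 0.13; edgeR adjusted p = 0.00252; 0.44 to 0.74 over 9 alternatives, called in all 9). For the second experiment the c libraries read 360.1 and 345 CPM, c_DRB 302, rhau_sko 530.1 and rhau_sko_DRB 401 and 356 CPM. The genotypes overlapped there, since 1 rhau_sko_DRB library lay below 1 c library, and the fit with DRB as a term gave 0.48 (SE 0.11; edgeR adjusted p = 0.00521). Without the single rhau_sko library, replicate 5, this was 0.32 and not called (adjusted p = 0.116), and with the 2 shallow libraries 0.27 (0.335). Adjusted p ran from 2.10e-04 to 0.335 over 10 alternatives. The sko to c ratio was 1.504 without DRB and 1.25 with DRB.

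The cPDS experiment gave the largest change of Dazl. GV_C libraries held 525, 517 and 509 CPM and cPDS libraries 1014, 1099.6 and 1181 CPM, all above the controls as in 27.4% of genes tested. This was a 2.12-fold rise (log2 1.09, SE 0.06; edgeR adjusted p = 1.77e-09), and it ran from 1.04 to 1.16 on the log2 scale over 10 alternatives. The Trim control libraries held 399.5, 403 and 400.2 CPM and the Trim21 libraries 519, 463 and 505 CPM. These groups did not overlap either, as was so for 30.1% of genes tested, yet the change of 0.31 (SE 0.09) missed the threshold (edgeR adjusted p = 0.0555; 0.0377 to 0.187 over 10 alternatives, called in 3). Of 13593 genes tested in the growing, second and cPDS experiments, 653 (4.8%) were called higher in all 3, and Dazl was 1 of them.

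**Figure D2:**
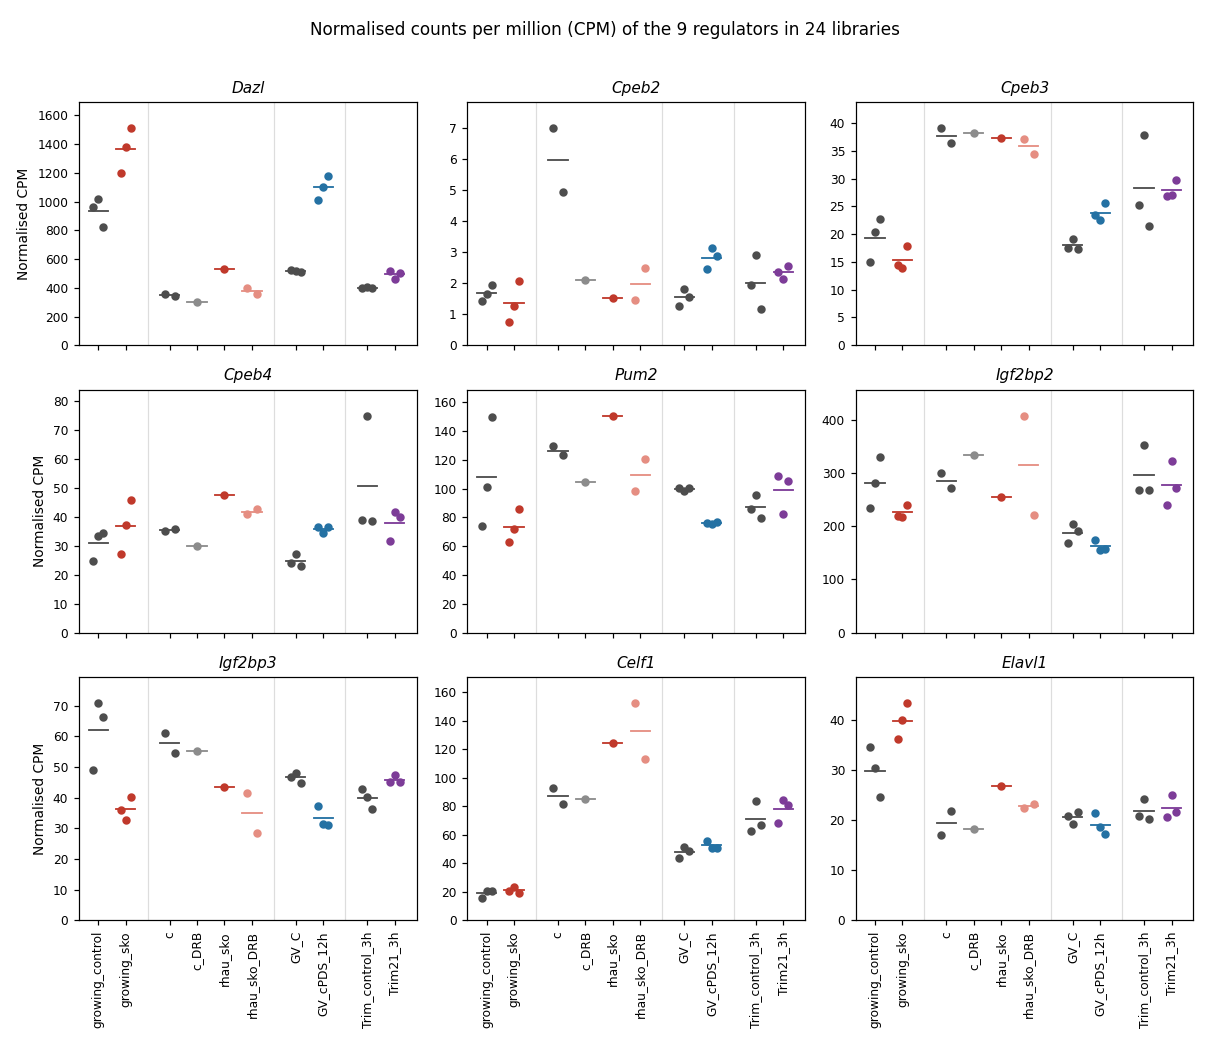
Normalised CPM (vertical axes, from 0) of each of the 9 genes in each of 24 libraries, with 1 point per library and a short line at the group mean. Grey lines part the 4 experiments, which were scaled separately. The cPDS points of Dazl (1014 to 1181) lie far above GV_C (509 to 525), and Trim control replicate 2 stands apart for Cpeb4 at 75.0.

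Cpeb2, Cpeb3 and Cpeb4 all rose with cPDS, and Cpeb4 was the single one of them called in another comparison. The proteins they encode form the branch of the family apart from CPEB1, the long-known regulator of oocyte polyadenylation. Cpeb4, whose protein has been tied to the later steps of meiosis in frog oocytes, lies on chromosome 11 (31772211 to 31835634, plus strand, mm9). It read 23.96, 27.4 and 22.9 CPM in GV_C and 36.5, 34.6 and 36.5 CPM with cPDS, all higher than any control (log2 0.54, SE 0.09; edgeR adjusted p = 1.69e-04). Among the second experiment's libraries, c and c_DRB held 35.2, 36.0 and 30.1 CPM, against 47.4 CPM in rhau_sko and 40.9 and 42.8 CPM in rhau_sko_DRB. Again the genotypes did not overlap, as for 48.3% of genes, and Cpeb4 rose (log2 0.46, SE 0.13; edgeR adjusted p = 0.0155). That call was lost without c replicate 1 (0.46, adjusted p = 0.0524), c_DRB replicate 3 (0.41, 0.114) or rhau_sko replicate 5 (0.47, 0.0844) and with the shallow libraries (0.51, 0.0987); over 10 alternatives the adjusted p was 0.00171 to 0.114. In growing oocytes the libraries overlapped at 24.6, 33.4 and 34.6 CPM in control and 27.3, 37.3 and 46.0 CPM in sko (log2 0.26, SE 0.18; edgeR adjusted p = 0.237).

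Trim control replicate 2 stood apart for Cpeb4, and it was also the highest of its group for Cpeb3 (37.8 against 25.3 and 21.5 CPM), Igf2bp2 (352 against 268 and 269 CPM) and Celf1 (83.4 against 63.0 and 66.8 CPM). Over all genes its counts differed from those of the other Trim controls by a chi-square per degree of freedom of 34.5 and 32.4, against 7.25 for the other pair. Pairs of growing control libraries stood at 32.2, 75.1 and 33.0, and 75.1 (replicates 1 and 3) was the largest of any pair within a group. Without Trim control replicate 2, 0 of 9 members were called with Trim21, as with it. The Trim control libraries held 39.0, 75.0 and 38.6 CPM and the Trim21 libraries 31.6, 41.7 and 39.9 CPM. The difference of -0.44 (SE 0.24; edgeR adjusted p = 0.28) became -0.05 without that library. It was called with no filter on low counts (adjusted p = 0.0441; 0.0441 to 0.862 over 10 alternatives).

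Cpeb3, on chromosome 19 (37095781 to 37283091, minus strand), was higher with cPDS (23.4, 22.5 and 25.6 CPM) than in GV_C (17.5, 19.13 and 17.3 CPM), again with no overlap. The log2 change was 0.41 (SE 0.10; edgeR adjusted p = 0.00232). It was close to level between genotypes in the second experiment, at 36.3 ± 1.57 against 37.9 ± 1.38 CPM (SD, n = 3 each; log2 -0.04, SE 0.13; edgeR adjusted p = 0.85). In growing oocytes it read 15.4 ± 2.11 CPM in sko and 19.4 ± 3.93 CPM in control (log2 -0.33, SE 0.17; edgeR adjusted p = 0.109), and without growing_control replicate 1 the change of -0.50 was called (0.0149; 0.0149 to 0.53 over 9 alternatives). Of its exon bases 116 are shared with A330032B11Rik on the other strand, and since the strand setting of the counting is not given, a small part of its reads is uncertain.

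Cpeb2, on chromosome 5 (43624702 to 43680963, plus strand), was the least abundant of the 9, at 0.747 to 7.01 CPM. It shares 87 exon bases with Gm7854 on the other strand, so some of its few reads are uncertain. It rose with cPDS from 1.26, 1.804 and 1.56 CPM to 2.45, 3.13 and 2.89 CPM, with no overlap (log2 0.87, SE 0.22; edgeR adjusted p = 0.0037). Both c libraries of the second experiment, at 7.01 and 4.95 CPM, lay above the other 4 (c_DRB 2.09, rhau_sko 1.53, rhau_sko_DRB 1.46 and 2.51 CPM). The sko to c ratio was 0.255 without DRB and 0.948 with DRB, and the interaction of genotype and DRB was 1.90 (SE 0.69), with an unadjusted p of 0.0202 and an edgeR adjusted p of 0.531. The genotype term was -1.01 (SE 0.49; edgeR adjusted p = 0.131). That term was called without c_DRB replicate 3 (-1.97, 0.0226), without rhau_sko_DRB replicate 8 (-1.35, 0.0294) and with no filter on low counts (-1.03, 0.0391), within 0.0226 to 0.93 over 10 alternatives. In growing oocytes the groups overlapped widely, at 1.44 to 1.95 CPM in control and 0.747 to 2.07 CPM in sko.

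Pum2 was lower with cPDS and, less firmly, in growing sko oocytes. It encodes a protein of the PUF family that represses mRNAs with its element, and its gene is on chromosome 12 (8680940 to 8759387, plus strand). The GV_C libraries held 101, 98.4 and 100.4 CPM and the cPDS libraries 76.4, 75.2 and 77.1 CPM. The 2 groups were tight and separate, with cPDS below as in 30.7% of genes tested (log2 -0.39, SE 0.07; edgeR adjusted p = 1.81e-04). Growing control libraries were spread over 73.8, 101 and 149 CPM and overlapped with the sko libraries at 62.8, 71.8 and 85.8 CPM. The change of -0.56 (SE 0.20; edgeR adjusted p = 0.0255) was lost without growing_control replicate 3, the library at 149 CPM (-0.27, 0.139), without growing_sko replicate 4 (-0.46, 0.119) or 5 (-0.54, 0.0738) and with library size alone (-0.39, 0.168). Over 9 alternatives its adjusted p was 1.27e-04 to 0.168.

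Pum2 did not pass between genotypes in the second experiment (log2 0.18, SE 0.12; edgeR adjusted p = 0.265). It read 129.7 and 123 CPM in c, 104 in c_DRB, 151 in rhau_sko, and 98.3 and 120.4 CPM in rhau_sko_DRB. The 3 libraries with DRB thus all lay below the 3 without it, as did 5.16% of genes tested (log2 -0.36, SE 0.12; unadjusted p = 0.0115, edgeR adjusted p = 0.253). The sko change in the second experiment minus that in growing oocytes was 0.70 for Pum2 (SE 0.26; edgeR adjusted p = 0.086), so the difference between the experiments missed the threshold. Over all genes this difference had a median of -0.08, which library size alone moved by -0.18 and DESeq2 by 0.11. It was called with DESeq2 (0.80, 0.0278), with no filter (0.68, 0.00734) and without growing_control replicate 1 (1.01, 0.00406) or growing_sko replicate 6 (0.93, 0.0378), within 0.00406 to 0.333 over 15 alternatives. Trim21 and control libraries overlapped, at 98.7 ± 14.4 and 86.9 ± 7.84 CPM (SD, n = 3 each).

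Igf2bp3 was lower in the same 3 comparisons in which Dazl was higher. Its gene is on chromosome 6 (49035220 to 49164953, minus strand), and 1531 of its 4344 exon bases are shared with 2410003K15Rik on the other strand. Since the strand setting of the counting is not given, how reads over those bases were counted is uncertain. Growing control libraries held 48.9, 70.7 and 66.4 CPM and growing sko libraries 35.9, 32.8 and 40.3 CPM. Every sko library was below every control, as in 28.7% of genes tested (log2 -0.77, SE 0.15; edgeR adjusted p = 4.08e-04; -0.93 to -0.59 over 9 alternatives, called in all 9). With cPDS Igf2bp3 fell from 46.8, 48.0 and 44.9 CPM to 37.4, 31.5 and 31.2 CPM, again with no overlap (log2 -0.48, SE 0.09; edgeR adjusted p = 3.59e-04; called in all 10 alternatives).

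Igf2bp3 in the second experiment stood at 61.2 and 54.7 CPM in c, 55.3 in c_DRB, 43.3 in rhau_sko, and 41.6 and 28.5 CPM in rhau_sko_DRB. The genotypes did not overlap (log2 -0.52, SE 0.16; edgeR adjusted p = 0.0269). The call was lost without c replicate 1 (-0.50, 0.0732), c_DRB replicate 3 (-0.42, 0.223) or rhau_sko replicate 5 (-0.66, 0.0554) and with the shallow libraries (-0.48, 0.107), within 0.00139 to 0.223 over 10 alternatives. Its Trim21 libraries (45.1, 47.4 and 44.9 CPM) lay above the Trim controls (42.9, 40.1 and 36.4 CPM), but the change of 0.20 (SE 0.13) did not pass (edgeR adjusted p = 0.371). Of the 13593 genes tested in all of the growing, second and cPDS experiments, 737 (5.42%) were called lower in all 3, and Igf2bp3 was among them.

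Igf2bp2, the more abundant of the 2 Igf2bp members by transcript, moved less. It lies on chromosome 16 (22059082 to 22163372, minus strand). GV_C libraries held 169, 203 and 191 CPM and overlapped with the cPDS libraries at 175, 155 and 157 CPM. The log2 change was -0.21 (SE 0.08; edgeR adjusted p = 0.0396). It was lost with DESeq2 (-0.19, 0.0514) and without GV_C replicate 2 (-0.15, 0.132) or 3 (-0.20, 0.117) or GV_cPDS_12h replicate 2 (-0.17, 0.176) or 3 (-0.18, 0.133), within 0.0079 to 0.176 over 10 alternatives. In growing oocytes it read 226 ± 11.99 CPM in sko and 281 ± 47.3 CPM in control (SD, n = 3 each; log2 -0.32, SE 0.13). That just missed the threshold (edgeR adjusted p = 0.0551) and was called with DESeq2 (0.0333), with no filter (0.0328) and without growing_control replicate 1 (0.00496), within 0.00496 to 0.446 over 9 alternatives. Its rhau_sko_DRB libraries were the highest and the lowest of the 6, at 407 and 222 CPM.

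Celf1 passed the test in the second experiment and Elavl1 in growing oocytes, both as higher in sko. Celf1, on chromosome 2 (90780539 to 90859654, plus strand), held 92.7 and 81.4 CPM in c, 85.4 in c_DRB, 125 in rhau_sko, and 152 and 113 CPM in rhau_sko_DRB. All 3 sko libraries were above all 3 others (log2 0.59, SE 0.14; edgeR adjusted p = 0.00723). The call was lost without c_DRB replicate 3 (0.51, 0.0817) and with the shallow libraries (0.58, 0.06), within 1.47e-04 to 0.0817 over 10 alternatives. The growing libraries overlapped, at 15.7, 20.5 and 20.4 CPM in control and 20.9, 23.4 and 19.0 CPM in sko. The difference of the 2 sko changes was 0.40 (SE 0.21; edgeR adjusted p = 0.236), so the experiments were not shown to differ.

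Elavl1, on chromosome 8 (4284782 to 4325100, minus strand), read 34.6, 30.4 and 24.6 CPM in growing control and 36.1, 40.0 and 43.3 CPM in growing sko oocytes. The groups did not overlap (log2 0.42, SE 0.14; edgeR adjusted p = 0.0231). Its call was lost without growing_control replicate 2 (0.41, 0.0655) or 3 (0.27, 0.116) and without growing_sko replicate 5 (0.41, 0.064) or 6 (0.35, 0.103), within 0.00203 to 0.116 over 9 alternatives. In the second experiment the values were 17.1 and 21.9 CPM in c, 18.1 in c_DRB, 26.7 in rhau_sko, and 22.4 and 23.2 CPM in rhau_sko_DRB. The genotypes were separate here too, with a change of the same size (log2 0.41, SE 0.16) that did not pass (edgeR adjusted p = 0.0681; 0.0492 with DESeq2, which called it; 0.0492 to 0.464 over 10 alternatives). With cPDS and with Trim21 neither gene passed, and their groups overlapped (Celf1 log2 0.13 and 0.13, Elavl1 -0.11 and 0.04).

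None of the 9 genes passed the test for DRB by edgeR. With genotype as a term, it called 0 of 9 members and 2 of 16784 genes (0.0119%), while DESeq2 called 541 genes and edgeR with no filter on low counts 492. At an unadjusted p under 0.05 there were 2 members, Dazl and Pum2, both with lower values with DRB (log2 -0.34, SE 0.11, and -0.36, SE 0.12), and 2099 genes. DESeq2 called 1 member, Dazl (-0.35, adjusted p = 0.0408, against 0.226 by edgeR; 0.0408 to 0.987 over 10 alternatives). Dazl with DRB was 0.857 times its level without in c and 0.714 times in sko, from 1 to 2 libraries a side. The interaction of genotype and DRB had 0 of 9 members and 6 of 18178 genes called (0.033%), with 1 member (Cpeb2) and 1493 genes at an unadjusted p under 0.05, and DESeq2 called 0 members.

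The order of the 9 genes by transcript abundance per exon length was alike in the control groups. As RPKM, which scales reads by exon length and library size, Dazl led in all 4 control groups, at 289.8 ± 24.4 in growing control (rank 222 of 19914 detected genes), 115 in c, 173 ± 1.76 in GV_C and 133 ± 2.26 in Trim control. Igf2bp2 came next (26.6 to 41.4 RPKM over the group means), then Pum2 (11.9 to 17.2) and Igf2bp3 (9.16 to 13.5), and Cpeb2 was last in each (0.219 to 0.828). Pum2 and Igf2bp3 overlapped in growing control but not in the other 3 groups. Celf1, Cpeb4, Cpeb3 and Elavl1 filled the places between, in an order that differed between groups, and neighbours among them often overlapped. Those were Elavl1 with Cpeb4 and Cpeb3 with Celf1 in growing control, Cpeb4 with Elavl1 in GV_C, and Celf1 with Cpeb4 and Cpeb3 with Elavl1 in Trim control. Igf2bp3 also overlapped with Celf1 in Trim control, so its place was not separate there.

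**Figure D3:**
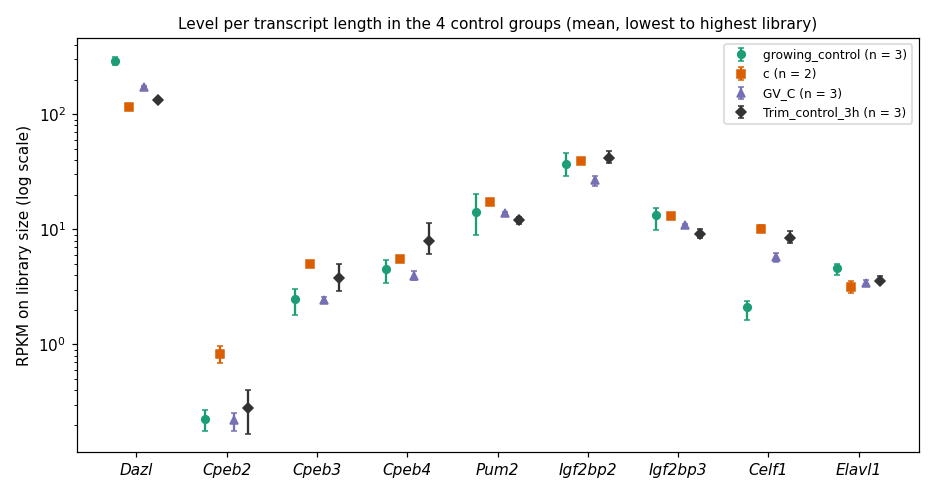
RPKM on library size (log axis) of the 9 genes in the 4 control groups, as means with bars from the lowest to the highest library. Dazl is highest in each group (115 to 289.8) and Cpeb2 lowest (0.219 to 0.828), and Celf1 is lower in growing control (2.11) than in the others (5.75 to 10.2).

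Among the control groups 3 members had a level in growing control apart from the rest, whether scaled on library size or jointly by TMM. Over all groups this did not hold for Dazl and Elavl1 on library size. Dazl with cPDS (360 RPKM) was above growing control (289.8). Elavl1 in rhau_sko (4.40 RPKM) lay within the growing control libraries (4.05 to 5.05). Growing control held more Dazl and Elavl1 than the other control groups, with Elavl1 at 4.61 RPKM in growing control against 3.18 to 3.597 in the other control groups (7.75 against 2.66 to 3.26 on the joint scale). Celf1 was lowest in both growing groups, at 2.11 and 2.67 RPKM, against 5.75 or more in every other group (3.49 and 3.49 against 5.38 or more jointly). The first 3 experiments were in 1 table and Trim in another, and experiment, stage and library preparation cannot be told apart in these contrasts, so they have no test. For Igf2bp3 the place of growing_sko depended on the scale. It was 8.94 RPKM on library size, below c (13.2), and 11.7 on the joint scale, where c had 10.99 and the ranges overlapped.

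Relatives of the 9 genes were called as well, some where the member of the family was not. Of 13 relatives, 8 were tested in growing oocytes, with 3 higher and 1 lower (median 0.09, against 0.02 over all genes), a share near the 53.7% of all genes called. Of 10 tested in the second experiment 2 were higher and 0 lower, where 36.0% of all genes were called.

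Cpeb1, which encodes the founding CPEB protein of oocyte polyadenylation, was far more abundant than Cpeb2 to Cpeb4. It fell in growing sko oocytes from 709, 921 and 993 CPM to 534, 525.96 and 552 CPM (log2 -0.70, SE 0.14; edgeR adjusted p = 3.95e-04), with no overlap, while the other 3 were not called. In the second experiment it was not called (-0.05, SE 0.13; edgeR adjusted p = 0.783), and with cPDS it rose from 539.7, 515 and 505 CPM to 745, 697 and 669.8 CPM (log2 0.44, SE 0.06; edgeR adjusted p = 2.59e-05). All 4 Cpeb genes were thus called higher with cPDS, where 23.4% of genes were called higher and 27.4% lower. Of the other 9 tested relatives with cPDS, Celf2 rose (126 ± 3.55 to 202 ± 15.5 CPM, SD, n = 3 each; log2 0.68, SE 0.07), and Elavl3 (-0.79, SE 0.13), Dazap1 (-1.01, SE 0.29) and Igf2bp1 (-1.58, SE 0.50) were lower. Celf2 rose in the Trim21 libraries as well, from 154, 165 and 134 to 226, 213 and 199.8 CPM (log2 0.50, SE 0.11; edgeR adjusted p = 0.0136). It was the single relative of 7 called there, where 11.5% of all genes were called. That call was lost without Trim_control_3h replicate 3 (0.42, 0.0782) or Trim21_3h replicate 1 (0.45, 0.0649), within 0.00169 to 0.0782 over 10 alternatives. Elavl2, the germline relative of Elavl1, rose in the second experiment from 143, 132 and 115 CPM to 243, 243 and 190.1 CPM (log2 0.88, SE 0.12; edgeR adjusted p = 3.42e-04) and was level in growing oocytes (80.3 ± 14.0 and 83.4 ± 8.26 CPM, SD, n = 3 each).

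**Figure D4:**
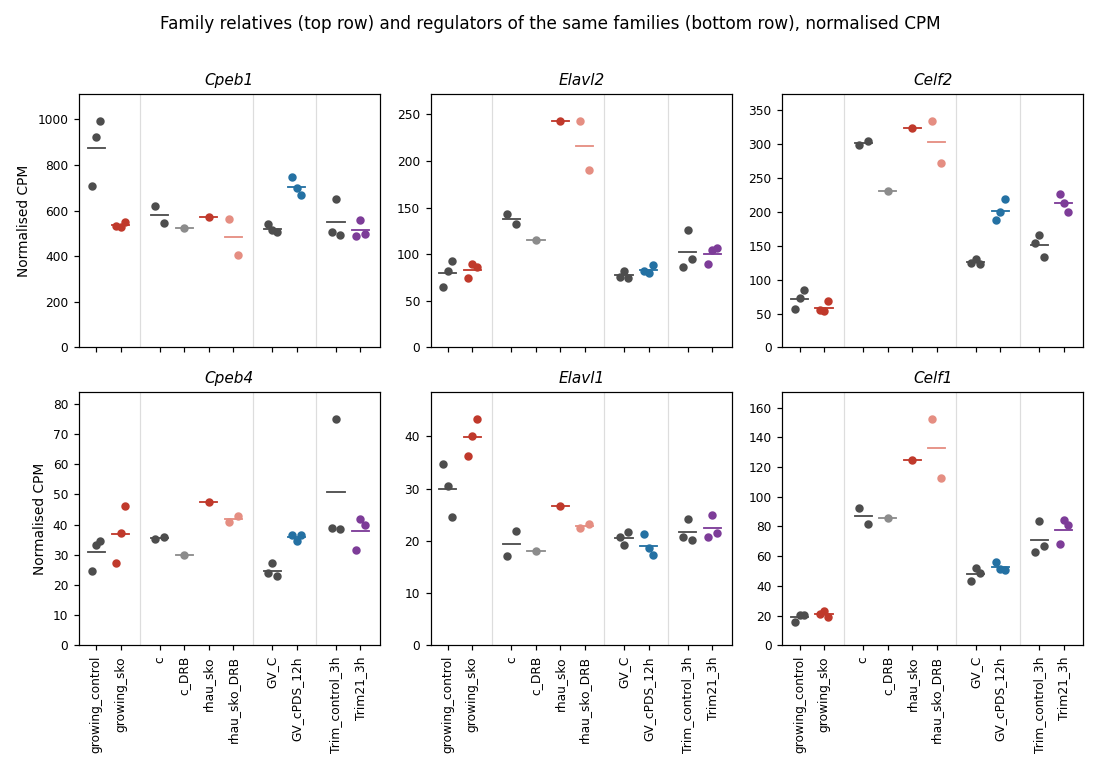
Normalised CPM (vertical axes, from 0) per library of 3 family relatives (top) and of the member of the same family (bottom), with group means as short lines. Cpeb1 and Cpeb4 are both higher with cPDS.

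Partners of the 9 proteins in tail length control were called in both directions. This list of 16 measured genes holds polyadenylation factors, cap-binding proteins and Nanos genes. In growing oocytes 15 were tested, 2 were higher and 6 lower (median -0.17, all genes 0.02), a share near the 53.7% of all genes called there. Pabpc1l, the oocyte poly(A)-binding protein gene, fell from 104 ± 18.6 to 44.3 ± 6.55 CPM (SD, n = 3 each; log2 -1.22, SE 0.15) and the cleavage factor gene Cpsf4 changed by -1.19 (SE 0.19), while the cap-binding gene Eif4e rose by 0.44 (SE 0.15; edgeR adjusted p = 0.0247) and Pabpc1, at 2.15 ± 0.849 to 4.66 ± 0.600 CPM, by 1.119 (SE 0.28). The Eif4e call did not survive leaving out growing_control replicate 2 (0.40, 0.0976) or 3 (0.26, 0.112) or growing_sko replicate 5 (0.41, 0.0829) or 6 (0.42, 0.079), within 5.44e-04 to 0.112 over 9 alternatives. Pabpc1l was lower in the second experiment too (-0.88, SE 0.14; edgeR adjusted p = 7.98e-04), where 2 of 15 were higher and 4 lower and 36.0% of all genes were called. With cPDS 5 of 15 were higher and 8 lower (median -0.26), against 50.8% of all genes called. Papd4, which encodes the cytoplasmic poly(A) polymerase GLD2, rose from 34.3 ± 1.68 to 68.1 ± 5.97 CPM (log2 0.99, SE 0.09), Dazap2, whose protein binds DAZ proteins, from 260 ± 7.77 to 509 ± 33.6 CPM (0.97, SE 0.07), and Nanos2, a PUF partner gene, fell from 47.2 ± 4.598 to 3.73 ± 0.250 CPM (-3.67, SE 0.12; SD, n = 3 each). In the Trim21 libraries 1 of 15 was lower and 0 higher, where 5.23% of all genes were lower and 6.26% higher. It was the oocyte cap-binding gene Eif4e1b (-0.51, SE 0.12; edgeR adjusted p = 0.0192). That call was lost without Trim_control_3h replicate 3 (-0.47, 0.0771) or Trim21_3h replicate 1 (-0.44, 0.0917) or 3 (-0.51, 0.0815), within 0.00279 to 0.0917 over 10 alternatives.

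Known target mRNAs of DAZL or CPEB1 were also counted, since their level is set apart from their translation. Of 12 tested in each experiment, 2 were higher and 3 lower in growing sko oocytes, 1 higher and 5 lower in the second experiment, 7 higher and 5 lower with cPDS, and 1 higher and 2 lower with Trim21. Over all genes 53.7%, 36.0%, 50.8% and 11.5% were called in these comparisons. Mos, a kinase gene of meiotic arrest, fell in both sko comparisons (-1.40, SE 0.12, and -1.22, SE 0.11). Tex19.1, a classical DAZL target, fell in the second experiment (-1.33, SE 0.17) and with cPDS (131 ± 19.0 to 32.8 ± 4.63 CPM, SD, n = 3 each; log2 -1.996, SE 0.12). Plat, whose stored mRNA is a model of cytoplasmic polyadenylation, fell with cPDS (-2.43, SE 0.09) and rose in growing sko oocytes (0.61, SE 0.16), while Ccnb1, the cyclin B1 gene, rose with cPDS (0.70, SE 0.07). Ddx4, a germ cell helicase gene, rose in growing sko oocytes (1.81, SE 0.16) and fell with Trim21 (-1.45, SE 0.17). Every call named in this paragraph held under each alternative run on its comparison.

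Other mRNA-binding regulators were counted as a list of 23. Of 21 tested in growing oocytes 9 were higher and 3 lower (median 0.26), where 28.5% of all genes were higher and 25.2% lower, a balance that library size alone moves toward higher. Of 22 in the second experiment 7 were higher and 0 lower (median 0.21), against 19.2% and 16.8% of all genes. With cPDS 4 of 22 were higher and 7 lower (23.4% and 27.4% of all genes), and with Trim21 1 was higher and 1 lower of 22 (6.26% and 5.23%). In growing oocytes the hnRNP-type gene Syncrip changed by 2.53 (SE 0.29) and Msi2, a Musashi gene, by 0.92 (SE 0.14). Qk, the Quaking gene, rose in the second experiment (76.8 ± 13.1 to 129 ± 25.1 CPM; log2 0.92, SE 0.11) and with cPDS (42.1 ± 0.789 to 78.5 ± 8.42 CPM; 0.90, SE 0.09; SD, n = 3 each). Fxr2, a relative of the fragile X gene, fell in growing sko oocytes (-1.13, SE 0.30) and with cPDS (-1.96, SE 0.19). Each of these 6 calls held under every alternative run on its comparison.

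Markers of other ovarian cells were low, and their summed levels differed between groups in several comparisons. Beside the counts of called markers below, 28.5% of all genes tested were called higher and 25.2% lower in growing oocytes. These shares were 19.2% and 16.8% in the second experiment and 23.4% and 27.4% with cPDS. Granulosa and cumulus markers took 0.00233% to 0.0027% of counts in growing control and 0.00857% to 0.00896% in growing sko, with 5 of 9 tested genes called higher, and 0.00674% to 0.00932% in c and c_DRB against 0.0113% to 0.0154% in the sko libraries. They were 0.0111% to 0.0115% in GV_C and 0.00914% to 0.0104% with cPDS, and 0.00474% to 0.00493% in Trim control and 0.0069% to 0.00758% with Trim21. Between 1 and 7 of the 15 were at 0 counts in a library. Ptx3 and Tnfaip6 were at 0 in all 6 growing libraries, Amh in all 6 of the second experiment, and Amh and Foxl2 in all 6 Trim libraries. Fshr and Cyp19a1 had the smallest p among the called ones in growing oocytes and made up most of the rise of the sum there. Fshr went from 0.342 ± 0.0881 to 37.0 ± 1.72 CPM and Cyp19a1 from 9.28 ± 2.02 to 20.1 ± 1.02 CPM (SD, n = 3 each). Theca and stroma markers (8 genes) took 0.000263% to 0.000323% in growing control and 0.000491% to 0.000883% in growing sko, and 0.000322% to 0.000486% in c and c_DRB against 0.000619% to 0.000981% in the sko libraries. The sum of immune, endothelial and blood markers (8 genes, 1 to 5 of them at 0 counts in a library) went the other way in the second experiment, from 0.00412% to 0.00491% in c and c_DRB to 0.00235% to 0.00329% in sko, and overlapped in growing oocytes. Most of this sum was 1 gene, Pecam1, an endothelial adhesion gene. Pecam1 read 43.2 ± 3.66 CPM in c and c_DRB and 22.8 ± 3.23 CPM in the sko libraries (SD, n = 3 each; log2 -0.86, SE 0.15). Of 4 tested in the second experiment 3 were called lower, Pecam1 among them, and 1, Ptprc, higher (log2 6.45, SE 0.73). In growing sko oocytes 2 of 4 were lower and Ptprc was again higher (8.73, SE 1.01). With cPDS the sum of this list was 0.00166% to 0.00172%, against 0.00573% to 0.00608% in GV_C, with no overlap. Of 3 tested with cPDS only Pecam1, which was most of the sum there too, was called. It fell from 55.3 ± 2.35 to 13.6 ± 0.760 CPM (SD, n = 3 each; log2 -2.03, SE 0.09). Oocyte markers took 1.19% to 1.34% of counts in c and c_DRB and 0.729% to 0.924% in the sko libraries, where 5 of 10 were called lower and 1 higher. They took 1.79% to 2.17% in GV_C and 2.35% to 2.74% with cPDS (5 of 9 higher, 3 lower), again with no overlap, while the growing groups and the Trim groups overlapped. The part of all these markers in the changes of the 9 genes was not tested.

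Similarity of profile was described over the 24 libraries, each value centred on the mean of its experiment. The pair of genes most like Dazl were Arhgap42 and Slc43a3 (Pearson r 0.95 and 0.94 of log2 CPM), those most like Igf2bp3 were Lrrc8e and Pptc7 (0.91 and 0.91), and Elavl1 was closest to Ccdc50 (0.90). Celf1 was closest to Elavl2 (0.87) of the 5867 genes compared. Among the 36 pairs of members, Cpeb3 with Cpeb4 and Pum2 with Igf2bp3 were highest (0.60 each) and Dazl with Igf2bp3 lowest (-0.57). Libraries of a group share their perturbation, so these values carry no p.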

How the data were processed

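RNA sequencing was measured in 26 oocyte libraries. The authors deposited raw read counts per gene, in the column layout of featureCounts (per the file headers). Among the tools in the submitters' processing notes are HISAT2 2.1.0, STAR 2.5.2b and featureCounts 2.0.1, with build mm9, and their roles are not stated. The strand setting is not given in the sources used here. Of the Trim features, 33581 took a symbol by identical exons.

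Counts were fitted per experiment with edgeR 4.0.16 in R 4.3.3 (filterByExpr with a minimum count of 10, TMM, quasi-likelihood test, Benjamini-Hochberg adjustment over all genes tested, threshold 0.05). The second experiment was fitted as genotype plus DRB on 6 libraries, with the interaction in a separate model, and the sko change was compared between experiments on 12 libraries. Each SE was taken as the size of the log2 change divided by the root of the F statistic. The tests were checked on simulated data. Alternatives were library size alone, DESeq2 1.42.0, no filter on low counts, a replicate block, the 2 shallow libraries added and each library left out. The 9 genes, the gene lists and the tests were chosen with earlier results of these data known. Besides the 9 genes, the text names from each list called genes with the 2 smallest p in a direction, and the 2 genes most like each member where mean log2 CPM reached 4. Not all of these are given with values. Igf2bp1 with cPDS, and Cpeb1 and Elavl2 in comparisons that did not call them, fall outside that rule and were added after their values were seen. Values of 1 relative are not reported here. Intervals cover counting error only.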

Additional observations from a re-analysis of the deposited data

Results flagged for a closer look

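The c_DRB replicate 4 library, left out of every test for its 129192 counts, held 8 counts of Elavl1, which is 61.9 CPM on library size with an exact Poisson 95% interval of 26.7 to 122 CPM. That lies above the 16.8 to 26.5 CPM of the 6 deep libraries of the same experiment. Of 18 values (9 genes in 2 shallow libraries) it was the single one with its whole interval above the deep range, and 2 had theirs below it, Cpeb4 at 0 counts (up to 28.6 CPM, against 30.7 to 47.1) and Celf1 at 31.0 CPM (8.44 to 79.3, against 80.3 to 154), both in that library.

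None of the 9 genes had a sko change that differed between the second experiment and growing oocytes by edgeR (1 of 9 had an unadjusted p under 0.05, and DESeq2 called 1), where 12.5% of 17437 genes did. Of 12 tested family relatives 2 were called higher, and of 15 tail length partners 1 was higher and 1 lower. Of 22 other mRNA-binding regulators 2 were higher and 3 lower, and of 12 known targets 2 were higher and 3 lower. The 12 genes named next were picked from these calls by the smallest p in each list and direction, so that they were called is no result. The difference, second experiment minus growing oocytes on the log2 scale, was 0.61 for Cpeb1, 0.79 for Elavl2, 0.57 for Cpsf2, 0.78 for Ybx1, 1.34 for Fxr2, 0.75 for Cnot6l and 0.54 for Btg4. It was negative for Pabpc1 (-1.26), Syncrip (-2.58), Zfp36l2 (-1.54), Ddx4 (-1.50) and Tex19.1 (-1.27). Of these, Syncrip, Ddx4 and Tex19.1 were called under all 15 alternatives, and the others under 7 to 13 of 15.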

How the results depend on the processing

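Over 1197 values (named genes by alternative), 1052 kept direction and side of the threshold, 107 lost a call, 18 gained one and 20 changed sign, none of those 20 being called under either setting. Genes called over all genes, main and lowest to highest with a library left out, were 7566 and 6625 to 7687 in growing oocytes, 6043 and 3678 to 6066 between genotypes in the second experiment, 2 and 1 to 8 for DRB, 6 and 30 to 217 for the interaction, 8191 and 7012 to 8066 with cPDS, 1630 and 928 to 1936 with Trim21, and 2187 and 1166 to 2510 for the difference between experiments. Of the 9 members the same was 4 and 2 to 6, 4 and 1 to 5, 0 and 0 to 0, 0 and 0 to 0, 7 and 6 to 7, 0 and 0 to 0, and 0 and 0 to 1. With the 2 shallow libraries 0 members were called between genotypes (edgeR). DRB gave 541 genes and 1 member with DESeq2 and 492 genes with no filter on low counts. The interaction gave 57 genes with DESeq2 (45 higher and 12 lower, against 2 and 4), 272 with no filter and 0 with the shallow libraries (edgeR, 937 at an unadjusted p under 0.05). With Trim21, Dazl was called as higher under library size alone, DESeq2 and the replicate block, and Cpeb4 as lower with no filter (1 member each). For the difference between experiments Pum2 was called with DESeq2 and with no filter (1 member each). The interaction could not be fitted without c_DRB replicate 3 or rhau_sko replicate 5, since a group is then empty. In the second experiment, a lone library of a group is assumed to vary like the other groups. The causes were not tested.

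Sign changes were as follows. In the Trim21 comparison Cpeb3 read 0.031 with the replicate block, and with a library left out Cpeb3 ran from -0.18 to 0.25, Igf2bp2 from -0.21 to 0.041, Cpeb1 from -0.17 to 0.032, Elavl2 from -0.15 to 0.13, Cpeb2 from -0.028 to 0.59 and Elavl1 from -0.041 to 0.11. In the second experiment Igf2bp2 ran from -0.33 to 0.045 and Cpeb1 from -0.16 to 0.041, and in growing oocytes Elavl2 from -0.084 to 0.15. The difference between experiments for Dazl was 0.0065 with DESeq2 and ran from -0.26 to 0.10 with a library left out.

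The labels give cPDS and Trim libraries shared numbers, but same-numbered libraries did not deviate together (r -0.17, -0.15 and -0.09 for cPDS, 0.17, 0.19 and -0.11 for Trim), so the numbers were not used as pairs. With the replicate block Igf2bp2 lost its cPDS call (-0.21, edgeR adjusted p = 0.0906) and Dazl gained one with Trim21 (0.30, 0.0444). Depth limits Cpeb2, at 0.747 to 7.01 CPM.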
